A study of Mus musculus with 8 samples.

Results

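The 39 genes described here encode components of the stromal extracellular matrix and the contractile apparatus of smooth muscle. They were taken by symbol from a given list, and all 39 were found among the 55335 genes in the files. They cover 5 fibrillar collagens, 5 collagens of basement membranes and anchoring fibrils, 5 beaded filament and fibril-associated collagens, 4 small leucine-rich proteoglycans, 8 elastic fibre genes and fibulins, 2 matricellular genes, 3 surface genes of fibroblasts and mural cells, and 7 smooth muscle contractile genes. RNA came from sorted mouse prostate epithelium, gated as EpCAM-positive, CD24a-positive and CD49f-low cells, in 8 libraries that form 4 groups of 2. All mice share the prostate genotype that the labels abbreviate as PP. PPK mice carry Kmt2cPC-/- in addition. PP sham and PPK sham libraries came from mice of 3.5 months, and PP ADT and PPK ADT libraries from mice of 6.5 months. ADT commonly stands for androgen deprivation therapy, whose method is not stated in the labels. ADT and age changed together, so their effects cannot be told apart. The labels name neither the promoter that drives the deletions nor the number of animals behind each library, so p-values measure only the spread between these libraries.

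In the prostate, epithelial glands lie in a stroma of fibroblasts and smooth muscle. Fibroblasts secrete the fibrillar collagens I, III and V, with decorin, lumican and fibulins around them, while smooth muscle cells contract through actin, myosin and tropomyosin. Epithelial cells make parts of the basement membrane themselves, including collagen VII, which forms the anchoring fibrils of stratified epithelia, and they also express some tropomyosin isoforms. A sort for epithelial cells is meant to remove stroma, so a level of these genes can come from epithelial cells or from other cells in the sort. In bulk RNA, fewer cells of a type and less RNA per cell cannot be told apart.

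Levels are FPKM, fragments scaled for transcript length and library size, so that genes can be compared per length. Fold changes are differences of log2(FPKM + 1) with their standard error from limma, a scale that understates changes of low genes, and a gene passed at a Benjamini-Hochberg adjusted p under 0.05. No counts are in the files, and the depth of each library is unknown. Kmt2c, which the PPK genotype targets and which encodes a histone methyltransferase, had 13.3 and 13.9 FPKM in PP sham, 8.67 and 8.15 in PPK sham, 10.3 and 9.33 in PP ADT, and 6.6 and 6.36 in PPK ADT. It was lower in PPK than in PP in both settings by limma, though the values also count exons that remain. Libraries of a group correlated at 0.986 or more across genes. The 9 epithelial genes checked against the label summed to 5529 FPKM or more in the PP sham, PPK sham and PP ADT libraries and to 2422 and 2465 FPKM in PPK ADT. Between PPK sham and PPK ADT, the means of Krt8, Krt18 and Krt19 went from 1341, 1086 and 1416 FPKM to 290.2, 492 and 389. Of the 9, 7 fell there by limma, 1 rose and 1 did not pass (all tested genes: 30.7% fell and 31.9% rose). The 6 basal epithelial genes summed to 5793 and 5862 FPKM in PPK ADT and to at most 1368 elsewhere. The first sum alone therefore does not measure the share of epithelial cells.

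Stromal matrix and smooth muscle genes were lowest in PP libraries and highest in PPK ADT. Their summed level was 33.3 and 33.7 FPKM in PP sham, 99.7 and 98.9 in PPK sham, 76.6 and 74.4 in PP ADT, and 280.4 and 283 in PPK ADT. A pair of genes made up much of these sums: Tpm2 and Smtn together gave 34.2 to 35.9% in the sham libraries, 80.1 and 80.5% in PP ADT, and 40.8 and 40.3% in PPK ADT. Most of the other genes were low. In PP sham 8 of 39 had a mean of 1 FPKM or more, in PP ADT 7, in PPK sham 19 and in PPK ADT 27. Of the 39 genes, 10 stayed under 1 FPKM in every library: Col14a1, Ogn, Eln, Fbln5, Mfap5, Pdgfra, Pdgfrb, Myh11, Cnn1 and Des.

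**Figure D1:**
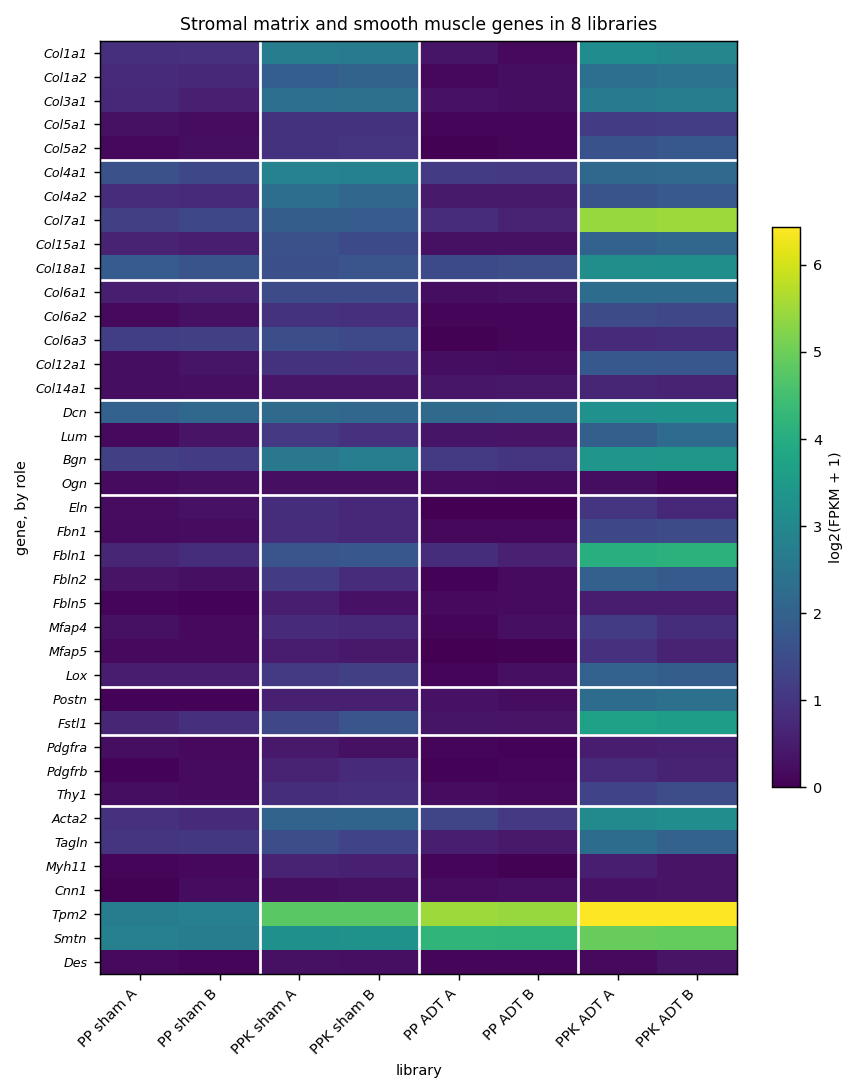
Heat map of the 39 genes (rows, grouped by role and separated by white lines) in the 8 libraries (columns), coloured by log2(FPKM + 1). Tpm2, Smtn and Col7a1 reach the highest values, most rows are darkest in the PP libraries, and the rows of Ogn, Pdgfra, Cnn1 and Des stay dark throughout.

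In sham mice, 25 of the 39 genes were higher in PPK than in PP and 0 were lower by limma, where 13.7% of all 14000 tested genes were higher and 14.9% lower. In ADT mice, 28 were higher in PPK and 0 lower, against 32.5% and 27.1% of all tested genes. At an unadjusted p under 0.05, 26 were higher and 0 lower in sham mice, and 28 and 0 in ADT mice. With ADT and age in PP, 3 genes rose and 13 fell (all tested genes: 19.1% and 25.1%). With ADT and age in PPK, 24 rose and 3 fell (all tested genes: 31.9% and 30.7%).

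These counts depend on which genes could be tested. A gene was tested if it reached 1 FPKM in 2 libraries, which 28 of the 39 did, and 19 of the 28 did so through PPK libraries only. Such genes had to be higher in some PPK libraries, so the counts over tested genes do not support a direction by themselves. Those that passed through PPK ADT libraries only, such as Postn and Fbn1, were favoured in the ADT comparison and not in the sham comparison. With no filter, when all 39 were tested among 31172 genes, 29 were higher in PPK sham, where 5.80% of all genes were higher. In PPK ADT 36 were higher in that fit, where 17.4% of all genes were higher. The median log2 fold change of the 39 was then 0.62 in sham and 1.29 in ADT mice, against 0.00 and 0.01 over all genes. The genes added in that fit reached 1 FPKM in at most 1 library, so the 39 are set there against many low genes. Its shares lie below the 13.7% and 32.5% of genes that were higher with the filter. The fall with ADT and age in PP was the least steady count. It was 13 with all libraries and 6 of 39 with no filter, where 10.8% of all genes fell. The count over tested genes also shrank when any PP library was left out.

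The order of the group means was shared widely. In 22 of the 39 genes PPK ADT stood highest, followed by PPK sham, PP sham and PP ADT, an order held by 6.4% of all tested genes. These 22 included all 5 fibrillar collagens, Col7a1, Bgn, Fbln1, Fstl1 and Tagln. Another order was that of Col4a1, Col4a2, Pdgfrb, Myh11 and Des, which were highest in PPK sham and lowest in PP ADT. The means of Dcn, Col14a1, Tpm2 and Smtn were higher in both ADT groups than in both sham groups, for Dcn by little in PP ADT.

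Among the fibrillar collagens, which form the load-bearing fibres of connective tissue, all 5 were higher in PPK than in PP in both settings, and all 5 reached the filter through PPK libraries only. Col1a1 (chromosome 11, 94936224 to 94953042, GRCm38), the alpha-1 chain of collagen I, stood at 0.844 and 0.888 FPKM in PP sham, 5.63 and 5.24 in PPK sham, 0.282 and 0.125 in PP ADT, and 7.68 and 6.91 in PPK ADT. No PP library overlapped a PPK library, and the lowest values were those of PP ADT. Its PPK effect, the log2 fold change against PP, was 1.79 ± 0.098 in the sham and 2.79 ± 0.098 in the ADT setting (limma adjusted p = 5.31e-05 and 1.42e-06). Col1a2, the alpha-2 chain of the same collagen, measured 0.698 and 0.682, 2.82 and 3.11, 0.102 and 0.189, and 4.1 and 4.49 FPKM in the same order of groups. Col3a1, the single chain of collagen III, measured 0.65 and 0.475, 4.13 and 4.15, 0.243 and 0.17, and 5.2 and 5.54 FPKM. Both followed the order of Col1a1, with PPK libraries above every PP library.

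The PPK effect on Col1a2 was 1.23 ± 0.089 in sham and 2.21 ± 0.089 in ADT mice, and that on Col3a1 was 1.72 ± 0.091 and 2.40 ± 0.091 (log2 fold changes). With ADT and age in PP, Col1a1 fell by 0.64, Col1a2 by 0.56 and Col3a1 by 0.37 on the log2 scale. Without PP sham replicate A, or without PP ADT replicate B, the Col3a1 value of -0.29 or -0.33 no longer passed. In PPK the same 3 genes rose with ADT and age by 0.37, 0.42 and 0.31 on the log2 scale, and none of these 3 passed with a pseudocount of 0.1 in place of 1. Col1a1 also lost this call without PPK sham replicate B (0.32) or PPK ADT replicate A (0.30), and Col3a1 without either PPK sham library (0.31) or PPK ADT replicate B (0.27). Col5a1 and Col5a2, chains of the fibril-nucleating collagen V, had group means of 0.189 and 0.133 FPKM in PP sham, 0.929 and 0.933 in PPK sham, 0.0712 and 0.0575 in PP ADT, and 1.23 and 2.24 in PPK ADT. They thus lay below collagens I and III in every group. Part of a short predicted gene, Gm47302, shares 141 bases on the same strand with Col3a1, and its group means were 0.918, 7.89, 0.362 and 10.7 FPKM in PP sham, PPK sham, PP ADT and PPK ADT.

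**Figure D2:**
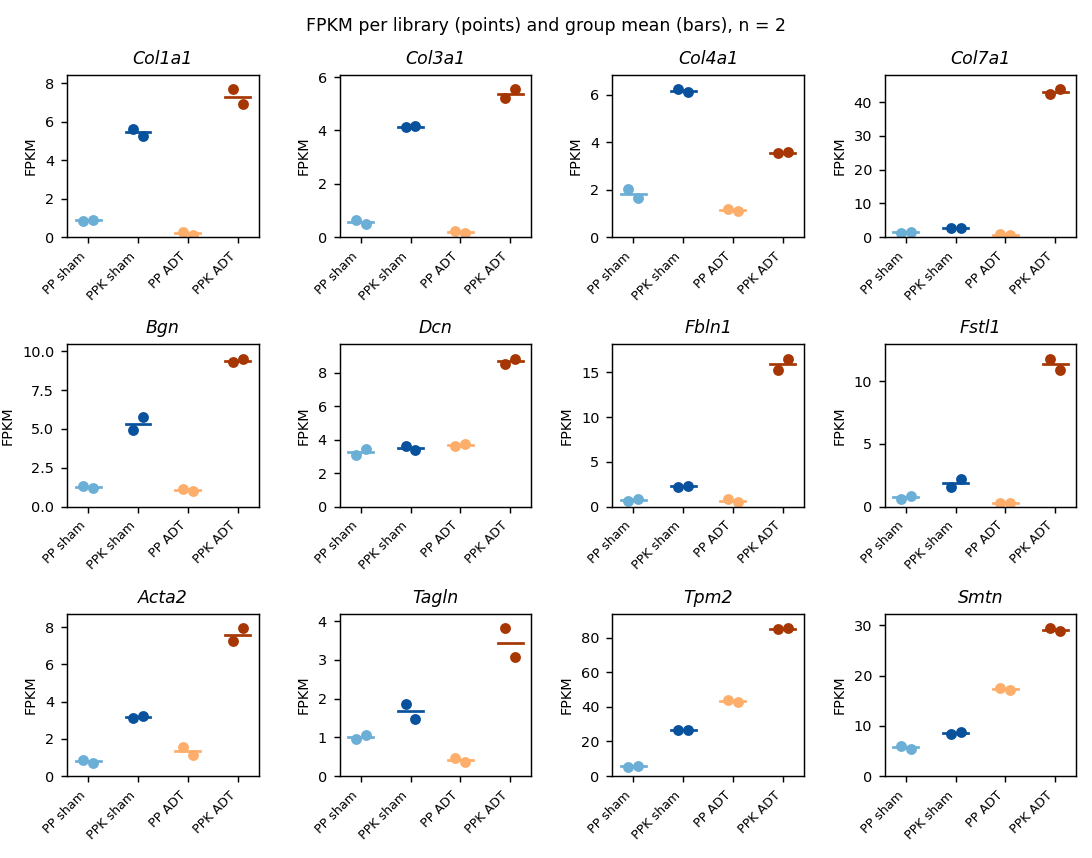
FPKM of 12 genes in each library (points) with the mean of the 2 libraries of a group (bars), on linear axes that start at 0. Col1a1, Col3a1 and Bgn are high in both PPK groups, Col7a1, Fbln1 and Fstl1 stand out in PPK ADT, and Tpm2 and Smtn climb through all 4 groups.

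The collagens of basement membranes split into patterns that differed between genes. Col4a1 and Col4a2 encode the paired alpha-1 and alpha-2 chains of collagen IV, the network of every basement membrane. They are transcribed in opposite directions from chromosome 8, and their annotated first exons overlap by 22 bases, at chr8:11312805-11312826 (plus strand, RefSeq, GRCm38.p6). This stretch, the start shared by both genes, is shown because both genes moved together.

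Col4a1 and Col4a2 overlap: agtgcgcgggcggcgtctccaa

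Col4a1 measured 2.01 and 1.63 FPKM in PP sham, 6.22 and 6.1 in PPK sham, 1.19 and 1.09 in PP ADT, and 3.53 and 3.58 in PPK ADT. Both PPK groups lay above both PP groups, and PPK sham lay above PPK ADT. The PPK effect was 1.35 ± 0.088 in sham and 1.09 ± 0.088 in ADT mice for Col4a1, and 1.42 ± 0.096 and 1.27 ± 0.096 for Col4a2 (log2 fold changes), and the difference of these effects did not pass for either gene (limma adjusted p = 0.127 and 0.398). Unlike the fibrillar collagens, both fell with ADT and age in PPK, by 0.65 and 0.49 on the log2 scale. Together with Col6a3 they were the genes among the 39 that fell there.

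Col7a1 (chromosome 9, 108953586 to 108984875), which encodes the anchoring fibril collagen VII, had the widest range of any collagen here. Its libraries read 1.34 and 1.62 FPKM in PP sham, 2.74 and 2.68 in PPK sham, 0.755 and 0.525 in PP ADT, and 42.4 and 43.8 in PPK ADT. The PPK ADT libraries lay far above all others, with a mean 15.9 times that of PPK sham, and at the 92.8th percentile of tested genes. Its PPK effect was 0.58 ± 0.095 in sham and 4.75 ± 0.095 in ADT mice (limma adjusted p = 0.00508 and 1.46e-07), and the rise with ADT and age in PPK was 3.57 ± 0.095 on the log2 scale. Genes of basal epithelial cells, which anchor the epithelium to its membrane, did not all move alike in these libraries. Of the 6 basal genes listed, 5 rose and 1 fell with ADT and age in PPK (all tested genes: 31.9% and 30.7%). Krt5 had a mean of 3243 FPKM in PPK ADT and 21.5 to 95.5 in the other groups, and Krt14 one of 1523 against 8.78 to 22. Krt15 fell from 1273 FPKM in PPK sham to 966 in PPK ADT, while Itga6 rose from 17.4 to 34.1. Itga6 stood at 33.4 FPKM in PP ADT, and its difference between PPK ADT and PP ADT did not pass. Trp63, the master regulator of basal cells, and Col17a1, a hemidesmosome collagen, were looked at after their values were seen, and had means of 23.3 and 17.2 FPKM in PPK ADT against at most 0.977 and 1.62 elsewhere. The part of basal-type expression in the level of Col7a1 was not tested.

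The 130 bases before the annotated start of Col7a1 are shown because it had the largest log2(FPKM + 1) change of the 28 tested genes, at chr9:108953456-108953585 (plus strand, RefSeq, GRCm38.p6), with a GC box, GGGCGG, in capitals.

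Col7a1: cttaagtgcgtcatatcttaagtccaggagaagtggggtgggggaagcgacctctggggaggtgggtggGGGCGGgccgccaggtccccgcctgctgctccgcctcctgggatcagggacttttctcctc

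The RefSeq promoter table held 25 of the 39 genes. A GC box, GGGCGG on either strand, lies in the 250 bases before the start of 15 of these 25 and of 32.7% of all 32851 promoters. A CCAAT box, CCAAT on either strand, was found in 8 of the 25 and in 33.8% of all promoters. These matches describe letters in a window and show no binding.

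Of the other basement membrane collagens, Col18a1, the source of the fragment endostatin, measured 2.69 and 2.21 FPKM in PP sham, 1.98 and 2.25 in PPK sham, 1.73 and 1.88 in PP ADT, and 8.09 and 8.15 in PPK ADT. The sham groups overlapped (log2 fold change -0.15 ± 0.096, limma adjusted p = 0.311), whereas PPK ADT lay above all other libraries, with an effect of 1.70 ± 0.096 against PP ADT. Its value of -0.30 for ADT and age in PP passed with all libraries but lost its call (-0.34 to -0.19) when any library other than PP sham replicate B was left out, without the filter and under either other scaling. Col15a1, a collagen of the zone beneath basement membranes, had group means of 0.513, 1.88, 0.22 and 3.21 FPKM in PP sham, PPK sham, PP ADT and PPK ADT.

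Collagen VI forms beaded filaments next to cells, and collagens XII and XIV bind to the surface of fibrils. Col6a1 had means of 0.479 FPKM in PP sham, 1.84 in PPK sham, 0.203 in PP ADT and 3.87 in PPK ADT, and Col6a2 had 0.174, 0.873, 0.0879 and 1.67. Their partner chain Col6a3 did not follow them: its means were 1.29, 1.81, 0.0597 and 0.746 FPKM. Col6a3 thus lay above Col6a1 in PP sham and below it in PPK ADT, and it fell with ADT and age in both PP (-1.11 ± 0.09) and PPK (-0.69 ± 0.09). Col12a1 rose from 0.906 to 2.39 FPKM between PPK sham and PPK ADT, with 0.237 and 0.168 in the PP groups. Col14a1 was at most 0.602 FPKM and was not tested.

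The small leucine-rich proteoglycans coat collagen fibrils and set their diameter. Decorin, Dcn (chromosome 10, 97479609 to 97518143), measured 3.06 and 3.43 FPKM in PP sham, 3.65 and 3.38 in PPK sham, 3.63 and 3.75 in PP ADT, and 8.56 and 8.84 in PPK ADT. The first 3 groups lay close together, and the PP sham and PPK sham libraries overlapped. Dcn did not pass between PPK and PP in sham mice (0.09 ± 0.074, limma adjusted p = 0.429), and was higher in PPK ADT than PP ADT by 1.05 ± 0.074 (limma adjusted p = 3.49e-05). It was the highest of the 11 defining fibroblast and smooth muscle genes in both PP groups and was higher there than Col1a1 by at least 3.63 times in each library.

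Biglycan, Bgn (chromosome X, 73483602 to 73495933), an X-linked proteoglycan of the same family, measured 1.31 and 1.2 FPKM in PP sham, 4.95 and 5.74 in PPK sham, 1.12 and 0.974 in PP ADT, and 9.29 and 9.52 in PPK ADT. It kept the order of Col1a1 without overlap between PPK and PP, with PPK effects of 1.49 ± 0.089 in sham and 2.35 ± 0.089 in ADT mice. Lumican, Lum, measured 0.12 and 0.257, 1.09 and 0.9, 0.279 and 0.255, and 2.84 and 3.72 FPKM in PP sham, PPK sham, PP ADT and PPK ADT. Every PPK library lay above every PP library. Ogn, osteoglycin, was at most 0.209 FPKM and had its lowest mean, 0.128, in PPK ADT.

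Of the 8 elastic fibre genes and fibulins, 4 reached the filter, through PPK libraries only, and their higher calls in PPK in both settings follow in part from that (all tested genes: 13.7% higher in sham and 32.5% in ADT mice). Fibulin 1, Fbln1 (chromosome 15, 85205949 to 85286535), a protein of basement membranes and elastic fibres, measured 0.625 and 0.806 FPKM in PP sham, 2.24 and 2.34 in PPK sham, 0.792 and 0.507 in PP ADT, and 15.3 and 16.5 in PPK ADT. The PP groups overlapped each other, and PPK ADT lay above all others, with a mean 6.95 times that of PPK sham. Its PPK effect was 0.94 ± 0.11 in sham and 3.36 ± 0.11 in ADT mice (limma adjusted p = 0.00131 and 1.06e-06). Fbln2, another fibulin, Fbn1, which encodes the microfibril protein fibrillin 1, and Lox, the enzyme that cross-links collagen and elastin, had means of 0.989, 0.706 and 1.22 FPKM in PPK sham and 2.72, 1.71 and 2.88 in PPK ADT, against at most 0.425 in either PP group. Eln, elastin itself, reached 0.967 FPKM in one PPK ADT library and was listed at 0 and 0.013 in PP ADT. Fbln5, Mfap4 and Mfap5, which assemble elastic fibres, reached at most 0.447, 1.17 and 0.896 FPKM.

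The 2 matricellular genes, whose secreted products act on cells more than on structure, were both higher in PPK ADT than in any other group. Fstl1 (chromosome 16, 37776873 to 37836514), a follistatin-like secreted protein, measured 0.604 and 0.863 FPKM in PP sham, 1.57 and 2.24 in PPK sham, 0.281 and 0.272 in PP ADT, and 11.8 and 10.9 in PPK ADT. All 4 groups were apart, with PP ADT lowest, and the PPK ADT mean was 5.95 times that of PPK sham. The PPK effect was 0.74 ± 0.13 in sham and 3.27 ± 0.13 in ADT mice. Postn, periostin, had means of 0.0478 FPKM in PP sham, 0.48 in PPK sham, 0.196 in PP ADT and 4.01 in PPK ADT.

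Receptors and surface proteins that define fibroblasts and mural cells were near the bottom of the range. Pdgfra, the PDGF receptor of fibroblasts, measured 0.179 and 0.118 FPKM in PP sham, 0.353 and 0.225 in PPK sham, 0.0657 and 0.0468 in PP ADT, and 0.438 and 0.482 in PPK ADT. Pdgfrb, the receptor of mural cells, measured 0.0509 and 0.147, 0.555 and 0.7, 0.0531 and 0.054, and 0.688 and 0.527 FPKM. For both genes every PPK library lay above every PP library, at levels under the filter. With no filter, Pdgfrb passed in sham mice and both passed in ADT mice. Thy1, a surface glycoprotein of fibroblasts and other cells, had means of 0.161, 0.821, 0.126 and 1.67 FPKM in PP sham, PPK sham, PP ADT and PPK ADT.

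The 7 smooth muscle contractile genes fell into 2 abundant, 2 low and 3 near-absent genes. Tpm2 (chromosome 4, 43514711 to 43523765) encodes beta-tropomyosin, which winds along actin filaments in muscle and in other cells. Its libraries read 5.48 and 6.01 FPKM in PP sham, 26.8 and 26.8 in PPK sham, 43.8 and 42.7 in PP ADT, and 84.9 and 85.3 in PPK ADT. The 4 groups did not overlap, and in PPK ADT the gene stood at the 96.6th percentile of tested genes. The PPK effect was 2.04 ± 0.046 in sham and 0.96 ± 0.046 in ADT mice, and the rise with ADT and age was 2.72 ± 0.046 in PP and 1.63 ± 0.046 in PPK (limma adjusted p at most 5.68e-06). Smtn (chromosome 11, 3517523 to 3540612), smoothelin, an actin-binding protein named for smooth muscle, measured 5.97 and 5.48, 8.33 and 8.72, 17.5 and 17.2, and 29.4 and 28.9 FPKM. It climbed through the groups in the same order, with PPK effects of 0.50 ± 0.053 in sham and 0.72 ± 0.053 in ADT mice and rises with ADT and age of 1.45 ± 0.053 in PP and 1.66 ± 0.053 in PPK.

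Acta2, smooth muscle alpha-actin (chromosome 19, 34241090 to 34255590), was far lower than Tpm2. Its libraries read 0.885 and 0.717 FPKM in PP sham, 3.14 and 3.23 in PPK sham, 1.54 and 1.11 in PP ADT, and 7.24 and 7.94 in PPK ADT. The groups did not overlap, and the PPK effect was 1.22 ± 0.11 in sham and 1.89 ± 0.11 in ADT mice. The rise with ADT and age in PP, 0.37 ± 0.11 (limma adjusted p = 0.0386), lost its call (0.23 to 0.43) when any library other than PP ADT replicate B was left out, and without the filter. Acta2 is a textbook target of serum response factor, which binds CArG boxes, CC and GG around 6 bases that are mostly A or T. The start of Acta2 is shown around its boxes, in capitals, at chr19:34255438-34255467 and chr19:34255388-34255417 (minus strand, RefSeq, GRCm38.p6), which lie in an exon of another annotated Acta2 transcript.

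Acta2 upstream box: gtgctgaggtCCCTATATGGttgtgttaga

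Acta2 downstream box: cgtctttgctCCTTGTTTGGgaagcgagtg

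With at most 1 central base other than A or T, such a box lies in the 250 bases before the start of 4 of the 25 genes with a promoter sequence (Col1a2, Col6a3, Fbln2 and Acta2) and of 8.59% of all promoters.

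Tagln, transgelin or SM22, another actin-binding protein of smooth muscle, measured 0.951 and 1.05 FPKM in PP sham, 1.87 and 1.47 in PPK sham, 0.46 and 0.365 in PP ADT, and 3.81 and 3.06 in PPK ADT. The groups did not overlap. Its PPK effect in ADT mice was 1.65 ± 0.12 (limma adjusted p = 4.28e-05), and that in sham mice, 0.41 ± 0.12 (limma adjusted p = 0.0479), lost its call (0.30 to 0.52) when any sham library or either PP ADT library was left out, and without the filter. Exons of the opposite-strand gene Gm48529 cover 62.4% of its exon bases, at 0.786 to 1.39 FPKM in group means, and the sources used here do not state whether the authors' values used strand.

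The genes most specific to differentiated smooth muscle were close to absent. Myh11, smooth muscle myosin heavy chain, measured 0.087 and 0.0991 FPKM in PP sham, 0.535 and 0.483 in PPK sham, 0.0638 and 0.0195 in PP ADT, and 0.459 and 0.259 in PPK ADT. Des, desmin, measured 0.117 and 0.064, 0.22 and 0.192, 0.0843 and 0.0717, and 0.113 and 0.268 FPKM. Cnn1, calponin 1, was at most 0.266 FPKM. Every PPK library of Myh11 lay above every PP library, whereas PPK ADT and PP sham overlapped for Des.

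The PPK effect itself differed between ADT and sham mice for most of the genes. The difference of effects was positive in 24 and negative in 1 of the 39 by limma, where 30.0% of all tested genes were positive and 22.8% negative. Some of these genes, such as Col5a2 and Postn, reached the filter through PPK ADT libraries only, which favours a positive difference. With no filter 22 of the 39 were positive and 1 negative, where 14.3% of all genes were positive and 10.4% negative. The largest differences were those of Col7a1 (4.17 ± 0.13), Fstl1 (2.53 ± 0.19) and Fbln1 (2.42 ± 0.16), followed by Col18a1 (1.85 ± 0.14), all on the log2 scale. Tpm2 was the gene with a smaller effect in ADT mice (-1.08 ± 0.065, limma adjusted p = 2.38e-05). Col4a1, Col4a2 and Smtn did not pass.

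**Figure D3:**
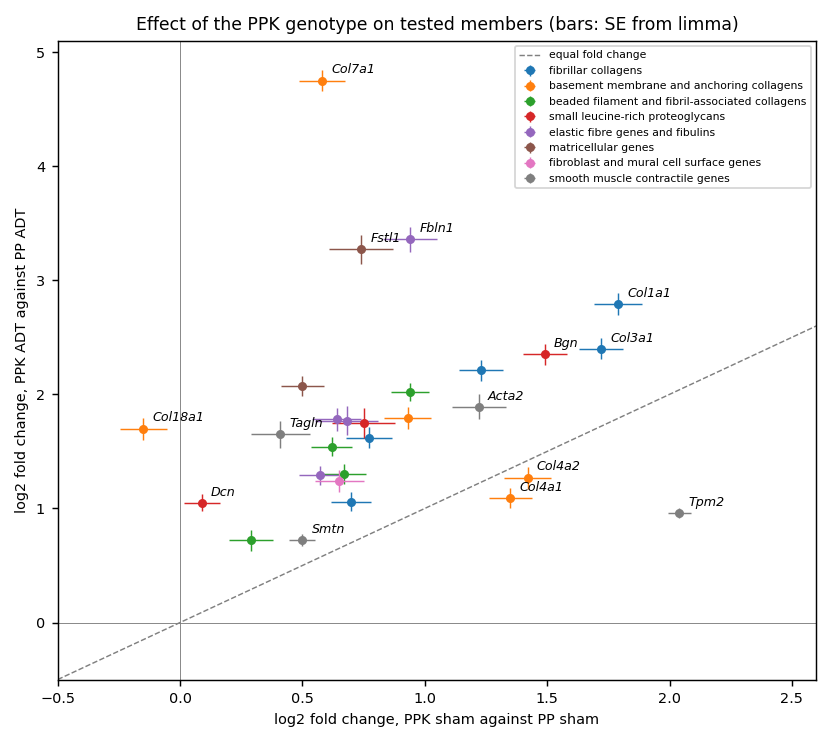
Log2 fold change of PPK against PP in sham mice (x axis) and in ADT mice (y axis) for the 28 tested genes, coloured by role, with SE bars from limma and a dashed line of equal change. Most genes lie above the line, Col7a1, Fstl1 and Fbln1 farthest, while Col4a1, Col4a2 and Tpm2 lie below it.

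The mixture of matrix genes was set against Col1a1 in PPK sham and PPK ADT, and ratios overlapped between these groups for some genes and not for others. Relative to Col1a1 in the same library, Col3a1 stood at 0.734 and 0.792 in PPK sham and at 0.676 and 0.803 in PPK ADT (ratios of FPKM). Col1a2 stood at 0.5 and 0.593 and then at 0.533 and 0.65, and Col5a1 at 0.165 and 0.177 and then at 0.156 and 0.182. For these 3 genes the ranges of both groups overlapped. Pdgfra, at 0.0627 and 0.0429 and then 0.057 and 0.0697 of Col1a1, overlapped as well. Col5a2, the other chain of collagen V measured here, did not overlap, at 0.162 and 0.182 of Col1a1 in PPK sham and 0.272 and 0.347 in PPK ADT.

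Other genes changed against Col1a1. Col7a1 went from 0.486 and 0.511 of Col1a1 to 5.52 and 6.34, Fbln1 from 0.397 and 0.446 to 1.99 and 2.39, and Fstl1 from 0.279 and 0.427 to 1.53 and 1.58. Tpm2 stood at 4.76 and 5.11 times Col1a1 in PPK sham and at 11 and 12.3 times in PPK ADT. Downward went Col4a1, from 1.1 and 1.16 to 0.459 and 0.518, and Myh11, from 0.0949 and 0.0921 to 0.0597 and 0.0374. In PP ADT, where Col1a1 itself was at 0.282 and 0.125 FPKM, such ratios spread widely, as for Tpm2 at 156 and 341.

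Genes for proteins that fold, modify and cut collagen were in part higher in PPK ADT. Of 22 such genes, 13 were higher in PPK ADT against PP ADT (all tested genes: 32.5%), 4 did not pass and 5 were not tested. Some of the 13, such as P3h2 and Fkbp10, reached the filter through PPK ADT libraries only, which favours a higher call there. In PPK sham against PP sham, 6 were higher and 1 lower (all tested genes: 13.7% and 14.9%). With ADT and age in PPK, 8 rose and 4 fell (all tested genes: 31.9% and 30.7%). Serpinh1, which encodes the collagen chaperone HSP47, had means of 5.75 FPKM in PP sham, 14.6 in PPK sham, 15.6 in PP ADT and 37.6 in PPK ADT. P4hb, a subunit of prolyl 4-hydroxylase that also serves other proteins, ranged from 178 to 279.7 FPKM in group means and was lowest in PP ADT. Plod2, P3h2 and Fkbp10, which modify or chaperone collagen and were chosen after their values were seen, reached 5.95, 5.9 and 6.15 FPKM in PPK ADT against 0.565, 0.187 and 0.383 in PP ADT. Loxl2, Loxl3, Loxl4, P4ha3 and Adamts2 stayed under 1 FPKM in every library.

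Genes of the actin cytoskeleton and its control by serum response factor moved in different directions between comparisons. Of 18 such genes, 5 were higher and 12 lower in PPK ADT against PP ADT (all tested genes: 32.5% and 27.1%), where Tpm2, Smtn, Acta2 and Tagln were higher. The 5 higher ones, named after their values were seen, were Myl9, Cald1, Cnn2, Flna and Lpp, with log2 fold changes of 0.20 to 1.55. Tpm4, a tropomyosin of non-muscle cells, had means of 64.1 FPKM in PP sham, 89.3 in PPK sham, 125 in PP ADT and 107 in PPK ADT, and Tpm1 had 64.9, 115, 204 and 91.8. With ADT and age in PP, 13 of the 18 rose by limma and 5 did not pass (all tested genes: 19.1% rose and 25.1% fell). There Tpm2, Smtn and Acta2 rose, while Tagln fell (log2 fold change -0.50). Acta2 and Tagln both lost these calls without the filter. In PPK 7 of the 18 rose and 5 fell with ADT and age, near the shares of 31.9% and 30.7% over all tested genes. In PPK sham against PP sham 9 were higher and 4 lower (all tested genes: 13.7% and 14.9%). Among 12 genes of the epithelial matrix and its adhesion, 5 were higher and 4 lower in PPK ADT against PP ADT and 1 was not tested, near the shares of 32.5% and 27.1% over all tested genes, among the lower ones the laminin chain gene Lama5 at 55 against 101 FPKM.

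Markers of other cells moved with some of these results. The 11 defining fibroblast and smooth muscle genes among the 39 summed to 7.64 and 7.93 FPKM in PP sham, 24 and 23.1 in PPK sham, 6.81 and 6.16 in PP ADT, and 41.1 and 42 in PPK ADT. Of 14 other fibroblast genes, 11 stayed under 1 FPKM in every library, among them Twist1, Twist2, Prrx1, Tcf21 and Cd34, and their sum ran from 1.55 to 1.66 FPKM in PP sham, 2.57 to 4.38 in PPK sham, 2.77 to 3.45 in PP ADT and 6.08 to 7.14 in PPK ADT. This sum was highest in PPK ADT, and the PPK sham and PP ADT libraries overlapped. Sfrp2 gave 2.62 and 2.01 FPKM of it in PP ADT. Without Sfrp2, left out after its values were seen, the other 13 summed to 1.6 and 1.41 FPKM in PP sham, 4.02 and 2.32 in PPK sham, 0.837 and 0.759 in PP ADT, and 4.44 and 4.16 in PPK ADT. Because Sfrp2 was dropped for its values, the order of these sums is no support for that of Col1a1. Of the 13, C7, Clec3b, Cd34 and Ebf2 had higher means in PPK sham than in PPK ADT (C7: 0.863 against 0 FPKM), and the rest had lower ones. Gli1 was at 0 in both PP ADT libraries, Twist1 and Ebf2 in both PP sham libraries, and C7 in both PPK ADT libraries.

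Of 10 other smooth muscle genes, 8 stayed under 1 FPKM in every library. Their sum was 8.5 and 9.45 FPKM in PP sham, 5.69 and 4.8 in PPK sham, 4.28 and 4.45 in PP ADT, and 2.89 and 2.95 in PPK ADT. Most of it came from Synm and Nexn, which encode a filament and an actin-binding protein and together gave 7.52 and 8.45, 4.46 and 3.94, 4.08 and 4.06, and 1.94 and 2.03 FPKM. The other 8 genes summed to 0.978 and 1.0 FPKM in PP sham, 1.23 and 0.867 in PPK sham, 0.2 and 0.388 in PP ADT, and 0.951 and 0.926 in PPK ADT. These sums were lowest in PP ADT and alike in level in the other groups, but not gene by gene. Pgm5 alone had means of 0.686 FPKM in PP sham, 0.637 in PPK sham, 0.0558 in PP ADT and 0.16 in PPK ADT. Myocd, the coactivator that defines the smooth muscle lineage, was at 0 in both libraries of PP sham and of PP ADT, and had means of 0.00441 FPKM in PPK sham and 0.0041 in PPK ADT. The part of smooth muscle cells in the levels of Tpm2 and Smtn was not tested further.

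Of 12 endothelial genes, 10 stayed under 1 FPKM in every library. Their sum was 2.74 and 2.58 FPKM in PP sham, 6.09 and 6.5 in PPK sham, 1.22 and 1.32 in PP ADT, and 2.69 and 2.47 in PPK ADT. PPK sham was highest and PP ADT lowest, as for the means of Col4a1, Col4a2, Pdgfrb, Myh11 and Des, but PP sham and PPK ADT overlapped, whereas the means of these 5 genes were higher in PPK ADT than in PP sham. The part of vessels in their levels was not tested. The pericyte list held 4 of 7 genes under 1 FPKM in every library, Cspg4, Abcc9, Kcnj8 and Higd1b. Its sum was 10.9 and 10.6 FPKM in PP sham, 17 and 15.7 in PPK sham, 37.9 and 34.9 in PP ADT, and 117 and 119 in PPK ADT. Most of it came from Rgs5, Notch3 and Ndufa4l2, which did not move alike. From PP ADT to PPK ADT the mean of Rgs5 went from 16.8 to 9.23 FPKM, Notch3 from 18.3 to 39.8 and Ndufa4l2 from 1.1 to 68.3. Macrophage genes summed to 22.2 to 22.3 FPKM in PP sham, 35.3 to 36.5 in PPK sham, 31.9 to 36.5 in PP ADT and 25.6 to 28.7 in PPK ADT. Of 5 Schwann cell genes 4, and of 6 lymphocyte genes all 6, stayed under 1 FPKM in every library. The other Schwann cell gene, Ngfr, had means of 0.128 FPKM in PP sham, 0.275 in PPK sham, 0.129 in PP ADT and 3.15 in PPK ADT.

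**Figure D4:**
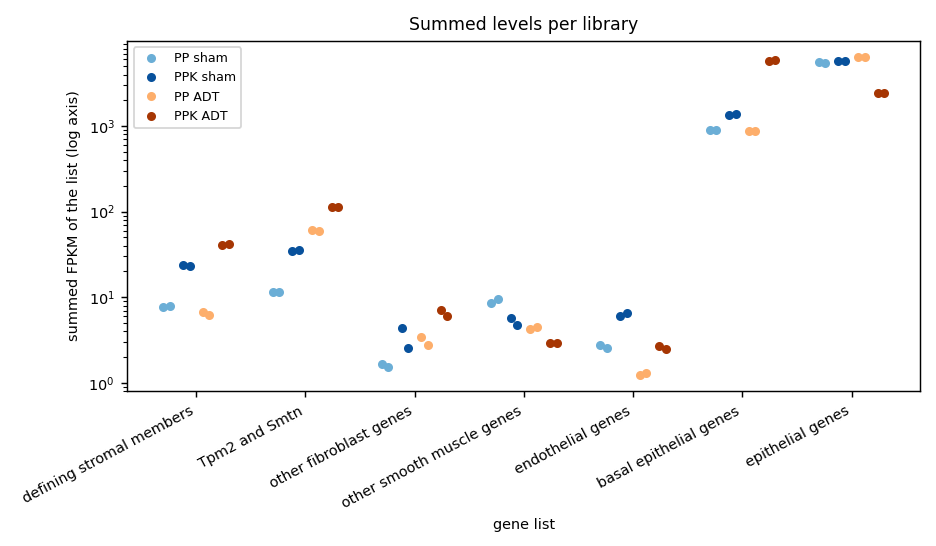
Summed FPKM of 7 gene lists in each library on a log axis, coloured by group. The defining stromal genes and the pair of Tpm2 and Smtn are highest in PPK ADT, the other smooth muscle genes are lowest there, the endothelial genes peak in PPK sham, and the epithelial lists lie far above the stromal genes in every group.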

How the data were processed

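FPKM values were computed by the authors and deposited as 1 table per library. Per the labels, total RNA was taken with Trizol into strand-specific TruSeq libraries. FastQC 0.11.2 and the build mm10 are named in the submitters' processing notes. For aligner, quantifier and annotation the sources used here give no name. FPKM holds no counts, so depth is unknown and low values carry counting error that cannot be stated.

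Tables were joined on 55335 Ensembl identifiers, and 55154 matched GENCODE M21 (GRCm38). In limma 3.58.1 (R 4.3.3), 4 group means over 8 libraries were fitted to log2(FPKM + 1) with a mean-variance trend, for the 14000 genes that reached 1 FPKM in 2 or more libraries. P-values were two-sided and adjusted over all 14000. The test was tried on simulated data. Tables were made with pandas 2.3.3 and numpy 2.4.6 in Python 3.11.15, and plots with matplotlib 3.10.9. Promoters came from RefSeq (GRCm38.p6).

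The 39 genes and all lists were chosen with earlier results of these data known. Genes with a group mean of at least 5 FPKM and 11 defining genes are given per library, other members by mean and range, and from each further list up to 4 genes by level and those under 1 FPKM throughout. Organoid experiments named in the design were not analysed here, and 1 item of the labels is not reported here. One choice was changed at a time: each library left out, the letters A and B as a block, a fit of the 2 groups compared, no trend, scaling by median of ratios or by quantiles, a pseudocount of 0.1, a minimum log2 fold change of 1, no filter, and a filter at a mean of 5 FPKM.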

Additional observations from a re-analysis of the deposited data

Results flagged for a closer look

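For 13 of the 15 tested genes given per library, the PPK effect differed between ADT and sham mice by the test of the difference itself in limma, as ADT minus sham on the log2 scale. It was larger in ADT mice for Col7a1 (4.17), Fstl1 (2.53), Fbln1 (2.42), Col18a1 (1.85), Tagln (1.23), Col1a1 (1.00), Lum (1.00), Col1a2 (0.98), Dcn (0.96), Bgn (0.86), Col3a1 (0.68) and Acta2 (0.67). It was smaller for Tpm2 (-1.08). The value of Acta2 did not pass with a pseudocount of 0.1 (0.57). Over all tested genes, 30.0% had a positive and 22.8% a negative difference. Col7a1, Fbln1, Fstl1 and Col18a1 are given per library because their mean reached 5 FPKM, in PPK ADT only, which favours a positive difference. The count of 13 therefore does not support a direction by itself.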

How the results depend on the processing

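No called value of the genes given per library reversed under any alternative. Under a mean FPKM of at least 5, which only Col7a1, Tpm2 and Smtn reach among the 39, 3 were higher in PPK in sham mice and 3 in ADT mice, 3 rose and 0 fell with ADT and age in PPK, 1 fell in PP, and 2 had a positive difference of effects. All genes passing were then 4918 for PPK in ADT mice, 3933 for ADT and age in PP, 5056 in PPK and 4476 for the difference. With a log2 fold change of at least 1, 8 were higher in PPK sham, 10 rose and 0 fell with ADT and age in PPK, 1 fell in PP and 10 had a positive difference. All genes passing were 515, 2498, 1214, 2761 and 2944 for the comparisons in sham mice, in ADT mice, of ADT and age in PP and in PPK, and of the difference.

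With no filter, 6 fell with ADT and age in PP, and 5 to 12 with each library left out. Same-letter libraries deviated together at correlations of -0.00791 to 0.0566, so the letters share only a number. With the letter as a replicate block, 73 of 75 values of genes given per library kept their call, and Col18a1 (-0.30) and Acta2 (0.37) for ADT and age in PP lost it. Smtn gained a call for the difference of effects under a mean of at least 5 FPKM (0.21) and without PP sham replicate B (0.26). The files hold no counts, so the counting error of values under 1 FPKM could not be computed.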

Other observations

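Colgalt1, which encodes a collagen galactosyltransferase and is among the 4 most abundant collagen-processing genes, varied between the libraries of both ADT groups. Its PP ADT libraries read 18.4 and 32.5 FPKM, and its PPK ADT libraries 32.3 and 17.2. Sfrp2, a secreted regulator of Wnt signalling in the list of other fibroblast genes, did not pass between PPK and PP in either setting. Its means were 0.0968 FPKM in PP sham, 0.307 in PPK sham, 2.31 in PP ADT and 2.3 in PPK ADT, and it rose in both PP and PPK by limma.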
